A study of Mus musculus with 2 samples.

Results

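The genes described here are 9 enzymes that supply deoxynucleotides, the building blocks of DNA. They are Rrm1, Rrm2, Rrm2b, Tyms, Tk1, Dut, Dck, Dtymk and Cad, chosen by symbol. Their rows were taken from a list of E2F1 binding peaks in mouse liver cells. Of the 9 genes, 6 had a row in that list and each of these had 1 peak, while Rrm2, Rrm2b and Dtymk had none. For the whole list, 5406 of 21900 protein-coding genes (24.7%) were named for at least 1 peak.

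The ChIP-seq compared chromatin pulled down with an anti-E2F1 antibody (c-20) with input chromatin that had no antibody step. Both came from primary hepatocytes of C57Bl6J mice that had been infected with Ad-E2F1, an adenovirus carrying E2F1, and were harvested 36 h later. There is 1 record of the ChIP and 1 of the input, and no cells without Ad-E2F1 were analysed here, so all peaks belong to a state of forced E2F1 expression. The series text describes 2 replicates that each combine 2 ChIPs, but the list is not split by replicate. No value below therefore carries a replicate error, and no test was run. The sources used here state neither the age and sex of the mice nor the share of infected cells, and they state no read totals. A peak list holds no expression values, so the labelled cell type could not be checked against its markers.

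DNA synthesis needs all 4 deoxynucleotides at once. Ribonucleotide reductase makes them from ribonucleotides, thymidylate synthase and thymidylate kinase complete the thymidine branch, and salvage kinases reuse deoxynucleosides. E2F1 is a transcription factor that binds promoters of genes used in S phase, and several genes of this pathway are textbook E2F targets. Adult hepatocytes are mostly quiescent and enter S phase when the liver regenerates.

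A peak counted as a promoter peak where its summit and an assigned transcription start site (TSS) were at most 1000 bp apart. All 6 listed genes had their peak at the promoter by this measure, which is 6 of 9 genes, against 2866 of 21900 protein-coding genes (13.1%). Their fold enrichment over input, as the authors' peak caller gave it, was 20.21 at Tyms, 16.45 at Rrm1, 8.31 at Tk1, 6.29 at Dut, 5.52 at Dck and 4.44 at Cad. The median of these 6 values was 7.30, against 6.52 over the 2866 genes with a promoter peak. The highest was 4.55 times the lowest. Tyms and Rrm1 were well above the rest. Tk1 was also above the median of all genes with a promoter peak, and Dut, Dck and Cad were below it. A fold of at least 10 was reached by 2 of the 6, against 22.1% of the genes with a promoter peak, and the same 2 genes had a false discovery rate of 0%, against 7.75%. Of the 2612 promoter peaks, 3.41% had a higher fold than Tyms and 82.8% a higher fold than Cad.

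**Figure D1:**
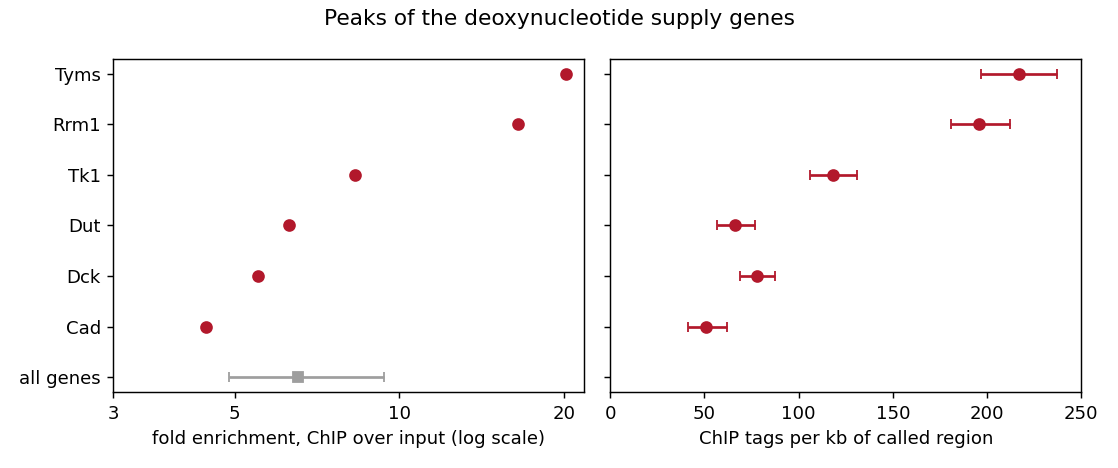
Left, fold enrichment of ChIP over input on a log axis for the peak of each listed gene, with the median and quartiles of the 2866 genes with a promoter peak in grey. Right, ChIP tags per kb of called region with exact Poisson 95% intervals, which cover counting error only; Tyms and Rrm1 lie apart from the other 4 in both panels.

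Ribonucleotide reductase is built from the large catalytic subunit Rrm1 and a small radical-bearing subunit, which is Rrm2 in S phase and Rrm2b, a p53 target, outside it. The Rrm1 peak (ENSMUSG00000030978) had its summit window on chromosome 7 from 109590021 to 109590321 (mm9), and this window held the TSS. Its called region of 3164 bp contained 619 tags (exact Poisson 95% interval 571 to 670) and the false discovery rate was 0%. By tags it was number 33 of the 5667 listed peaks, by fold number 207. Among the 2612 promoter peaks it was number 170 by fold. No peak was listed for Rrm2 or Rrm2b, so of the enzyme's subunits the large one alone had a row. The absence of a row does not show whether E2F1 was bound, since 13240 of the caller's serial numbers between the lowest and highest in use are not listed.

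The promoters of Rrm1, with a strong peak over its start, and Rrm2, with no row, are shown to compare subunits of the same enzyme. The sequences are from RefSeq, build GRCm38.p6, run from 250 bases before to 50 after the TSS, and are given 5′ to 3′ on the gene's strand. Capitals mark an E2F word of 7 letters (TTTCCCGC, TTTGGCGC, TTTCGCGC or TTTGCCGC without the first T), a CCAAT box or a GC box (GGGCGG), each on either strand. The peaks are on mm9, so a peak summit cannot be placed on these letters.
Rrm1, chr7:102441445-102441744, plus strand: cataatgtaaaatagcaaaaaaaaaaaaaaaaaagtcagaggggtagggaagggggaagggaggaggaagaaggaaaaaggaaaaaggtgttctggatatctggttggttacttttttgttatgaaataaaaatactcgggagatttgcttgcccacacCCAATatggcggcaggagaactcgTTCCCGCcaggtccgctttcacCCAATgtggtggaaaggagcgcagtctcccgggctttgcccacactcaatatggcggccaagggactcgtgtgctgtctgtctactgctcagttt
Rrm2, chr12:24708004-24708303, plus strand: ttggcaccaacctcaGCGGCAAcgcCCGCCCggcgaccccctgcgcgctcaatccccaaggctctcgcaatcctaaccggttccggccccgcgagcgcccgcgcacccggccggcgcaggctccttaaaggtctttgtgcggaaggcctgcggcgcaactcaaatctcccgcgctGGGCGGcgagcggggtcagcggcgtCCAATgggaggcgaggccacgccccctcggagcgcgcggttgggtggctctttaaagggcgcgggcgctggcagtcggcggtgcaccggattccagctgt

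Both promoters held a 7-letter E2F word. In Rrm1 it was TTCCCGC with its first base at position -67 from the TSS, between CCAAT boxes at -91 and -45. In Rrm2 it was TTGCCGC on the opposite strand at -235, next to a GC box at -225. Another GC box lay at -75 and a CCAAT box at -50. Rrm2 had 40 CpG dinucleotides in its 300 bases, Rrm1 9, and the median over all promoters of the table was 7. The gene without a row was thus the one with the CpG-rich promoter of the pair.

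Tyms makes thymidylate from deoxyuridylate, Dut removes dUTP and so provides deoxyuridylate while keeping uracil out of DNA, and Dtymk phosphorylates thymidylate on the way to dTTP. The Tyms peak (ENSMUSG00000025747) was the strongest of the set by fold, on chromosome 5 from 30399380 to 30399680. It held 453 tags (95% interval 412 to 497) in 2092 bp at a false discovery rate of 0%. By the caller's score, which is -10 times the log10 of its p-value, it was number 37 of all 5667 peaks with 1781.31. The window lay inside the gene, its edge 477 bp past the TSS.

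The Dut peak (ENSMUSG00000027203) on chromosome 2 from 125073290 to 125073590 was also inside the gene, with its edge 364 bp past the TSS. It had 172 tags (147 to 200), the same count as the median of genes with a promoter peak, and a false discovery rate of 0.64%. Its fold was passed by 52.4% of promoter peaks, which places it in the middle of the promoter peaks. Among all 5667 listed peaks it was number 1824 by fold. Dtymk had no row. The thymidylate branch thus ran from one of the strongest promoter peaks at Tyms to no listed peak at Dtymk.

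The promoters of Tyms and Dtymk, the ends of that range, are given with the same marks and from the same RefSeq build.
Tyms, chr5:30073576-30073875, minus strand: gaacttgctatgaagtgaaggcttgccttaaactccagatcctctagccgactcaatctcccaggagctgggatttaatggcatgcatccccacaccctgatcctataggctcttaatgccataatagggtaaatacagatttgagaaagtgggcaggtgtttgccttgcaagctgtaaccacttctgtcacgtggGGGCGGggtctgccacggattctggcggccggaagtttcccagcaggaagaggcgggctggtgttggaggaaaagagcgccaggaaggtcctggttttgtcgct
Dtymk, chr1:93801885-93802184, minus strand: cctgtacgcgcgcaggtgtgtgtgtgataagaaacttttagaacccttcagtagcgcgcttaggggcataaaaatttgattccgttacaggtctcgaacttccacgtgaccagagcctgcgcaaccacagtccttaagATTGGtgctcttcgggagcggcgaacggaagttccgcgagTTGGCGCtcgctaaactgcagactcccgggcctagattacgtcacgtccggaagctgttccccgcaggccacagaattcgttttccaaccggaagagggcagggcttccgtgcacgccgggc

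In these letters Tyms, with the highest fold of the set, held a GC box at -54 and no E2F word or CCAAT box. Dtymk, with no row, held the E2F word TTGGCGC at -72 and a CCAAT box on the opposite strand at -112. The window ends 50 bases past the TSS, whereas the Tyms summit lay 627 bp past the authors' TSS. The Tyms summit window is therefore outside these letters, provided that the authors and RefSeq place the TSS at the same base, which was not tested. The called region, from 30398632 to 30400723, did reach past the TSS.

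Tk1 and Dck are salvage kinases: Tk1, the cytosolic thymidine kinase, is known for its S phase expression, and Dck phosphorylates deoxycytidine and purine deoxynucleosides. The Tk1 peak (ENSMUSG00000025574) on chromosome 11 from 117686576 to 117686876 had 344 tags (309 to 382) in 2918 bp and a false discovery rate of 0.22%. The window lay inside Tk1, its edge 530 bp past the TSS, and the authors classed it as inside the gene and not as promoter. Their promoter class ended at 499 bp past a TSS in this list. The closest gene was not Tk1 but Afmid, which codes for arylformamidase, and the window's edge was 361 bp upstream of the Afmid TSS. Tk1 and Afmid are adjacent and on opposite strands in RefSeq, and the same peak is assigned to both. Of the 6 listed members, Tk1 was the only one that was not the closest gene to its peak.

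The Dck peak (ENSMUSG00000029366) on chromosome 5 from 89194081 to 89194381 had its window edge 60 bp past the TSS. It was broad, with 278 tags (246 to 313) over 3568 bp, the longest region of the set, against a median of 1914 bp over all peaks. By tags it was number 690 of the list and by fold number 2332. The false discovery rate was 0.63%. The many tags at Dck thus came with a long region and not with a high fold.

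Cad is the multifunctional enzyme that starts de novo pyrimidine synthesis and so feeds both RNA and DNA precursors. Its peak (ENSMUSG00000013629) on chromosome 5 from 31357094 to 31357394 held the TSS in its window. It was the weakest of the set, with 95 tags (76.9 to 116) in 1871 bp and a false discovery rate of 8.11%, where the highest rate in the list was 8.57%. Its score was 51.48, and the list begins at 50. The Cad peak was therefore close to the lower limit of what was listed.

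The Cad promoter is shown because it carried an E2F word beside the weakest peak, with the same marks as above.
Cad, chr5:31054530-31054829, plus strand: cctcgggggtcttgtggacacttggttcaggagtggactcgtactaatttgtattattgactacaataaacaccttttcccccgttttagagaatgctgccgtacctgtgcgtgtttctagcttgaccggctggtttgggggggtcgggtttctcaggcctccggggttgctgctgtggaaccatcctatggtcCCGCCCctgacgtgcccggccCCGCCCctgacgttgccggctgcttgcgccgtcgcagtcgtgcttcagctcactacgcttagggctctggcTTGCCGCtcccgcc
The E2F word TTGCCGC began at position 37 past the TSS, and GC boxes on the opposite strand lay at -56 and -35. The peak window, 301 bp wide, also held the authors' TSS.

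Where the window lies relative to the start was not part of how the genes were chosen. The window held the TSS at Rrm1 and Cad and lay inside the gene at Tyms, Tk1, Dut and Dck. A window wholly downstream of the TSS was thus seen in 4 of 6 members, against 457 of 2866 genes with a promoter peak (15.9%). A window upstream of the TSS was seen in 0 of 6 members, against 32.7%, and one over the TSS in 2 of 6, against 51.4%. These counts concern the 301 bp summit window alone. The longer called region spanned the TSS in 6 of 6 members, against 96.2% of the 2355 genes with a promoter peak and 1 strand in RefSeq. Over all genes, downstream peaks had a median fold of 5.51 (n = 457), upstream peaks 6.45 (n = 937) and peaks over the TSS 6.90 (n = 1472). Tyms, Tk1, Dut and Dck had 20.21, 8.31, 6.29 and 5.52, at or above that downstream median. The summits of Tyms, Tk1, Dut and Dck lay 627, 680, 514 and 210 bp past the TSS. With promoters narrowed to 500 bp, the count fell to 3 of 9 (Rrm1, Dck and Cad), against 11.5% of all genes. The annotation behind the TSS is not named in the sources. A start site placed upstream of the one in use would shift these distances, which was not tested.

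**Figure D2:**
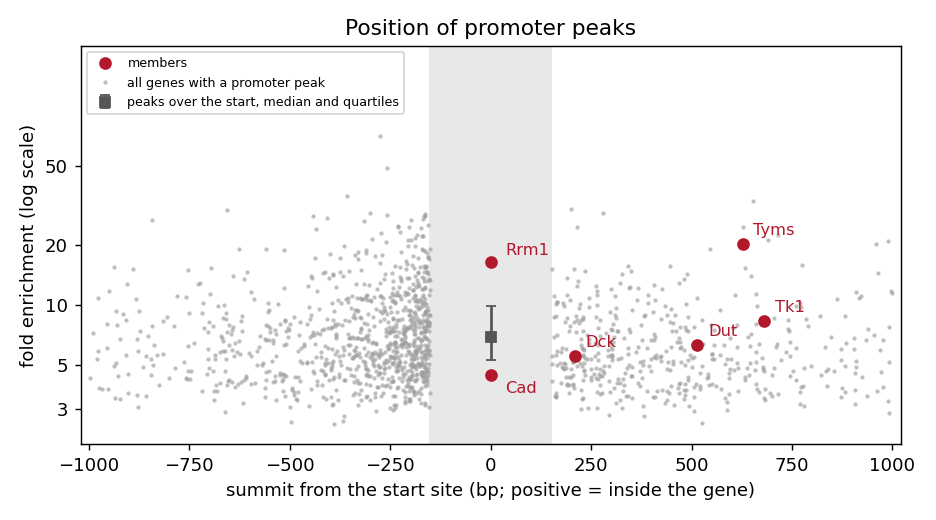
Summit position relative to the TSS in bp (positive inside the gene) against fold enrichment on a log axis, for the 6 listed members in red and all genes with a promoter peak in grey. Peaks whose window held the TSS have no exact distance and are drawn at 0 within the grey band; no member lies to the left of the band.

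Height and fold ordered the strongest members differently. The pileup at the summit was 264 at Rrm1, 191 at Tyms, 86 at Tk1, 61 at Dck, 52 at Dut and 34 at Cad, against a median of 61 over genes with a promoter peak. Rrm1 was higher than Tyms in tags and in pileup, yet lower in fold and in score. Height divided by fold never went below 5.24 in the 5667 peaks. This ratio was 16.0 at Rrm1 and 9.45 at Tyms, against a list median of 9.46, and only 3.46% of peaks had a higher ratio than Rrm1. It was 11.1 at Dck, 10.3 at Tk1, 8.27 at Dut and 7.66 at Cad. The sources do not say how the caller set its background, and the ratio is only a description of the deposited columns.

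**Figure D3:**
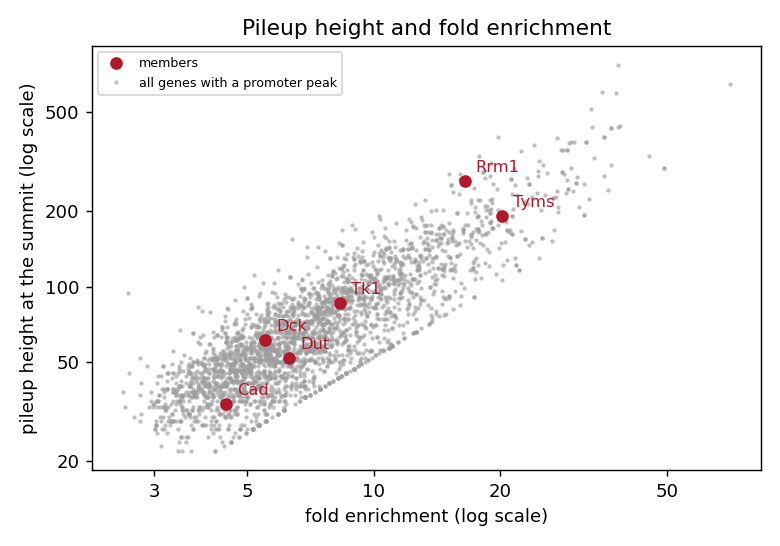
Pileup height at the summit against fold enrichment, both on log axes, for the 6 listed members in red and all genes with a promoter peak in grey. Rrm1 is higher than Tyms but lies left of it.

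Scaled to the length of the region, Tyms held 217 tags per kb (95% interval 197 to 237) and Rrm1 196 (181 to 212), and these intervals overlap. Tk1 followed with 118 (106 to 131), apart from its neighbours on both sides. Dck had 77.9 (69.0 to 87.6), Dut 66.3 (56.7 to 77.0) and Cad 50.8 (41.1 to 62.1). In that order Dck and Dut overlap, and so do Dut and Cad, whereas Dck and Cad do not. The intervals cover counting error only.

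Other genes were named for some of the same peaks. Afmid shared the Tk1 peak as described. Slc12a1, which codes for a kidney cotransporter, was named for the Dut peak, which lay downstream of it, with a distance of 17551 bp given. Mobkl1a was named likewise for the Dck peak at 2997 bp and Gm17448 for the Tyms peak at 10465 bp. Rrm1 and Cad were the only genes named for their peaks.

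The 8-letter E2F words TTTCCCGC, TTTGGCGC, TTTCGCGC and TTTGCCGC were searched on both strands. They were in 0 of the 8 member promoters that the RefSeq table holds. The share was 2.26% over all 32851 promoters and 8.19% over the 2893 promoters of genes with a promoter peak. Rrm2b has no entry in the table. The 7-letter words without the first T, which every 8-letter word contains, were in 4 of 8 (Rrm1, Rrm2, Dtymk and Cad), against 9.57% of all promoters and 26.7% of the 2893 promoters of genes with a promoter peak. Of these 4 genes 2 had a listed peak and 2 had no row, and the other 4 all had a peak. A CCAAT box was in 3 of 8 (Rrm1, Rrm2 and Dtymk), against 37.4% of all promoters and 46.3% of those of genes with a promoter peak. A GC box was in 6 of 8, against 35.7% of all promoters and 68.4% of those of genes with a promoter peak, and the Dck promoter held 6 of them. The median member promoter had 22 CpG dinucleotides, the same as promoters of genes with a promoter peak, against 7 over all promoters. A word is a match of letters and not a binding site.

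**Figure D4:**
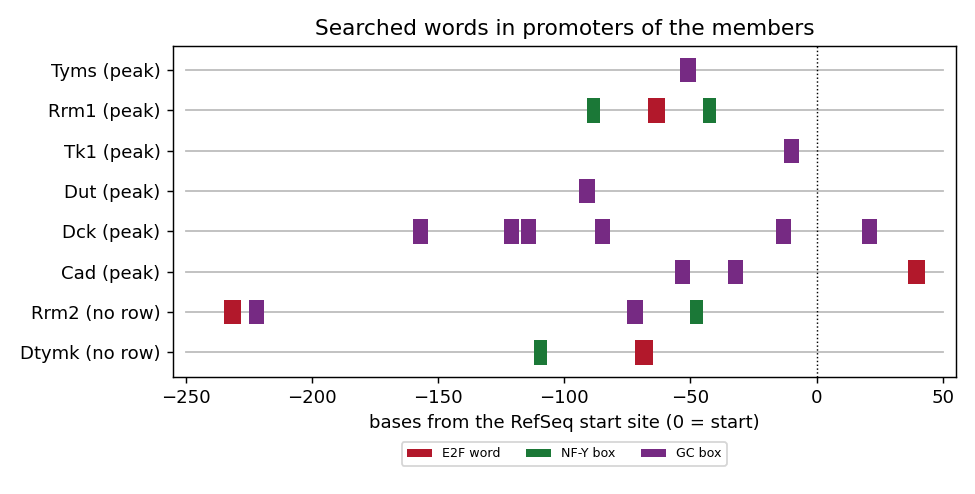
Positions of the searched words in the 300 bases around the RefSeq TSS of the 8 members in the table, in bases from the start, with E2F words of 7 letters in red, CCAAT (NF-Y) boxes in green and GC boxes in purple. E2F words lie in Rrm1 and Cad, which had a peak, and in Rrm2 and Dtymk, which had no row.

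The rest of nucleotide supply was read from a list of 65 other genes in 5 roles. A promoter peak was listed for 17 of them (26.2%, with 13.1% for coding genes in general), 11 had a peak elsewhere and 37 had no row. A row of any kind was thus present for 28 of the 65 (43.1%), against 24.7% of coding genes. The median fold of the 17 was 8.89, against 6.52 over all genes with a promoter peak. The share was highest for the thymidylate and folate cycle, which provides the methyl group that Tyms uses, with 5 of 10. There, Mthfd2 had 12.91 and Mthfd1 12.03, both enzymes of the folate one-carbon cycle. The mitochondrial enzyme Mthfd1l had 9.88. These 5 folds ran from 8.89 to 12.91, so Tyms was above and Dut below all of them.

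Purine synthesis and salvage had 6 of 20, led by Adss, which makes adenylosuccinate, with 14.32. The salvage enzyme Hprt followed with 11.29, and Prps1, which makes the ribose donor, with 10.26. Pfas, an enzyme of purine ring synthesis, was named for a peak of 11.17 that lay 4664 bp upstream of it, at the promoter of 1500010J02Rik, and Impdh2, the guanine nucleotide enzyme, for one of 3.63 at 5558 bp upstream that was also named for Qrich1. Kinases and turnover had 4 of 17. Dctpp1, a dCTP pyrophosphatase, had 10.69, Nudt1, which clears oxidised nucleotides, 5.96 at a promoter shared with Ftsj2, and Nme6, of the nucleoside diphosphate kinase family, 4.64. Itpa, which removes inosine triphosphate, was named for a peak of 7.52 at 3285 bp upstream of it, at the promoter of Ddrgk1. Ak1 was named for one of 4.78 at 12862 bp upstream that was also named for St6galnac6. The highest promoter fold of the 65 genes, 14.32, was below those of Tyms and Rrm1.

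The rest of the pyrimidine pathway had 2 of 12 at the promoter. Dhodh, which follows Cad in the pathway, had 5.04, and Umps, which makes uridylate, 3.79. These were close to the 4.44 of Cad. Cad, Dhodh and Umps were thus all below the median of 6.52 over genes with a promoter peak. Upp2, a uridine phosphorylase, had its highest peak of 5.43 inside the gene, and the uridine kinase Uck2 one of 5.0 at 1260 bp past the TSS. Of the 6 carriers reported here, 0 had a promoter peak. The nucleoside transporter Slc29a1 had a peak of 7.17 inside the gene at 3925 bp, and Slc25a33, a mitochondrial pyrimidine nucleotide carrier, one of 4.81 at 18623 bp upstream.

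**Figure D5:**
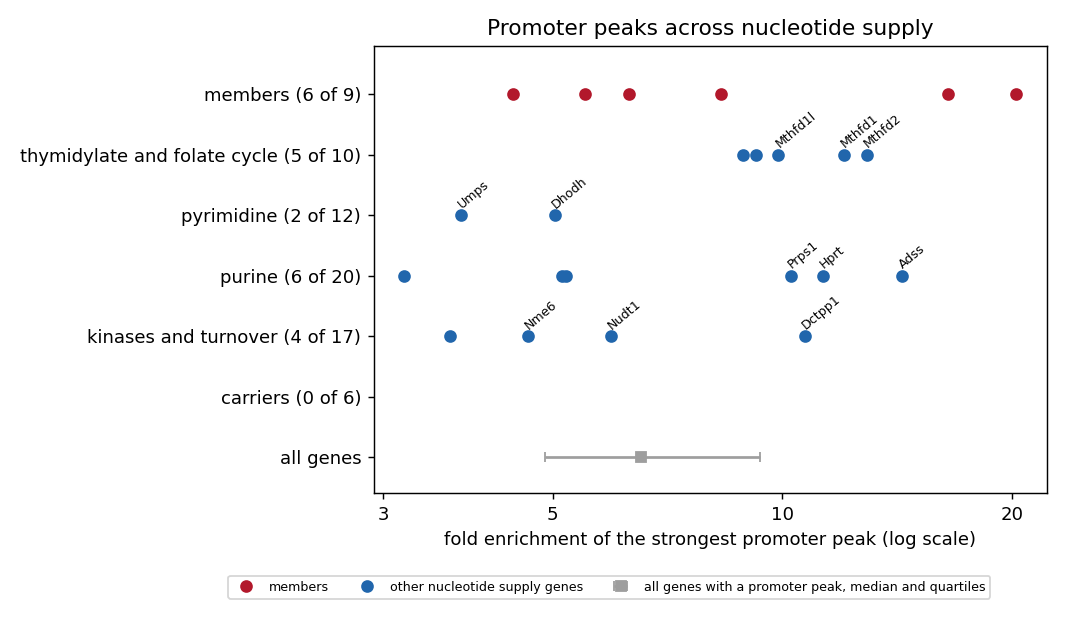
Fold enrichment of the strongest promoter peak, on a log axis, for the 9 members (red) and the 65 other nucleotide supply genes by role (blue), with the number of genes that had one beside each role. The grey mark gives the median and quartiles of all genes with a promoter peak; the highest values are those of Tyms and Rrm1.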

How the data were processed

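MACS called the peaks, per the file headers. The submitters' processing notes name Bowtie2 (2.1.0) and the build mm9 (NCBIM37), and give no settings. For each peak the deposited list gives the count of tags in the region, the height of the pileup signal, the fold (ratio of ChIP to background), a score of -10 times the log10 p-value and the false discovery rate as a percent. It had 6887 rows for 5667 peaks, and 5493 of 5587 symbols (98.3%) matched a RefSeq table (GRCm38.p6) used for names, gene order and promoters. How listed peaks were selected is not given.

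Window positions were written counting from 1. For rows that the authors class as downstream or 3UTR, distances were not used as distances to the TSS. Where a gene had several promoter peaks, the strongest was used. Exact Poisson intervals on tags were computed with scipy 1.17.1 (pandas 2.3.3, Python 3.11.15). Assignment and word search were tested on simulated data. Genes were compared with all protein-coding genes by counts and medians, without tests. Alternatives varied the promoter width, peak selection and E2F word. Members and lists were chosen with earlier results of these data known. All members are named; of other genes, all that share a member's peak, and per role the up to 3 with the highest promoter fold and the up to 2 with the highest fold elsewhere. A few genes, among them 2 of the pathway list, are not reported here. Read totals are unknown, so no depth per library is stated.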

Additional observations from a re-analysis of the deposited data

How the results depend on the processing

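The count of members with a promoter peak, 6 of 9, was also 6 with promoters of 5000 bp (against 15.3% of all genes). It was 5 with the authors' promoter class (13.2%) or with the closest gene only (11.7%), both without Tk1. It was also 5 among peaks with a p-value at or below the median (9.35%), or with a false discovery rate of at most 1% (8.01%), both without Cad. It moved to 3 with promoters of 500 bp (Rrm1, Dck and Cad, against 11.5%), to 2 where the window had to hold the TSS (Rrm1 and Cad, against 6.72%) and to 3 among peaks with a fold of at least 7.28, the upper quartile (Rrm1, Tyms and Tk1, against 5.49%). The count with any listed peak moved to 3 above that fold (against 7.53%) and was 5 under the limits on p-value (14.4%) and false discovery rate (11.7%). The median fold of 7.30 became 5.52 with promoters of 500 bp, against 6.71 over all genes, since Tyms, Tk1 and Dut dropped out. The 17 of 65 pathway genes with a promoter peak became 9 above that fold (against 5.49% of all genes). They were 12 with a false discovery rate of at most 1% (8.01%). With promoters of 500 bp they were 15 (11.5%), and with 5000 bp 21 (15.3%). E2F words of 8 letters were in 0 of 8 promoters on both strands (against 2.26% of all promoters) or on the gene strand (1.2%). With 7 letters they were in 4 of 8 (9.57%). No paired analysis was possible because there is 1 list for whatever replicates were used, and for the same reason no replicate could be left out. Unknown read totals and unlisted peaks limit what a missing row can show.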

Other observations

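The surroundings of the members were read from RefSeq gene order, a choice made after the values had been seen. Among the 36 protein-coding genes that stand within 2 places of a member, a promoter peak was listed for 6 (16.7%), with 13.1% for coding genes in general. Among these 6 is Afmid, whose peak is that of Tk1; among the 33 neighbours that share no peak with a member the count was 5 (15.2%). The strongest was at Cep152, a centrosome gene 2 places from Dut, with a fold of 27.14, against 6.29 at Dut itself. Birc5, the gene of survivin, an inhibitor of apoptosis that also acts in mitosis, is 2 places from Tk1 and had 13.26, against 8.31 at Tk1. Its summit lay 23882 bp from that of Tk1, and a further peak at Tha1 with a fold of 5.64 lay 48113 bp from it. No other member's peak had a second listed peak within 50000 bp.

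Next to the members without a row, Klf11, a transcription factor gene 2 places from Rrm2, had a promoter peak with a fold of 10.82. None of the 4 genes within 2 places of Dtymk (Thap4, Atg4b, Ing5 and D2hgdh) had a row, and the same held for the 4 around Cad, which does have a peak (Slc5a6, Atraid, Slc30a3 and Dnajc5g). Over all members, 15 of the 36 neighbours had a row, and 12 of the 33 that share no peak with a member. For comparison, 24.7% of all coding genes had a row.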
